A study of Mus musculus with 20 samples.

Results

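Crx, Otx2 and Prdm1 encode 3 transcription factors that act early in the photoreceptor programme, and their transcripts were followed in whole mouse retina of 5 genotypes. The genes were picked by symbol. All 3 were in the table of 1497 genes at postnatal day 21 (P21) and 0 of 3 in the table of 566 genes at postnatal day 2 (P2), so only P21 is described. The mutants were CrxRip/+, with 1 copy of the dominant Crx allele CrxRip next to a normal copy, CrxRip/Rip, with 2 copies of it, Crx-/-, the Crx null, and Nrl-/-, the null of the rod factor Nrl. They were set against wild type, and all groups had the C57BL/6J strain label and were taken at the same age. Each genotype had 2 samples per age, each made of 2 pooled frozen retinas, which gives 10 samples at P21 out of 20 in the series. The labels do not tie samples to animals, so the p-values measure the spread between these samples, which may be technical.

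Background on the 3 factors helps to read their levels. Otx2, an OTX family homeodomain protein, is needed for progenitors to become photoreceptors, and it acts upstream of Crx and Prdm1. It stays on in photoreceptors and is also found in bipolar cells and in the retinal pigment epithelium (RPE), the pigmented layer behind the retina. Crx, a close relative of Otx2 that binds the same core DNA motif, acts with Nrl on rod genes and also serves cone genes. Prdm1, a zinc finger repressor also known as Blimp1, is switched on in newborn photoreceptor precursors, where it holds back bipolar genes, and is low in the mature retina.

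The values are FPKM, fragment counts divided by transcript length and library total, which can be compared between genes because they are per length. The authors had already selected the genes of the P21 table for a difference in some pair of genotypes, so a call is common in it. Read depth is unknown. The table's summed FPKM was 21569.4 to 40702.0 in the mutant samples, against 53395.9 and 55335.3 in wild type. The targeted rod factor Nrl was at 0.2 FPKM on average in Nrl-/-, against 447 FPKM in wild type. Rod genes fell in every mutant, in 17 of 17 listed genes each time, and their summed FPKM was 495.5 to 1813.1 in the mutant samples against 18460.1 and 19539.4 in wild type. Because whole retina was sequenced, fewer cells of a type and less RNA per cell cannot be told apart. The authors' own fold changes carried a further constant shift that their FPKM do not, of -0.22, -0.22, -0.23 and -0.11 on the log2 scale for CrxRip/+, CrxRip/Rip, Crx-/- and Nrl-/- against wild type.

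The table measures 1 RefSeq transcript per gene, and on mouse build GRCm38 all 3 genes lie on the minus strand. Crx (NM_007770) spans chr7:15865947-15879955 with 4 exons. Otx2 (NM_144841) spans chr14:48656781-48667644, and the measured transcript has 3 exons. Prdm1 (NM_007548) spans chr10:44437174-44528558, with 7 exons in the measured transcript. No annotated gene overlapped the 3 measured transcripts, and the nearest neighbour of Crx was Crxos, on the opposite strand 2649 bases away.

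The promoter windows are shown because Crx and Otx2 proteins bind the motif GGATTA, whose reverse complement is TAATCC. Sequences are from RefSeq (GRCm38.p6, minus strand, 5′ to 3′, 250 bases before to 50 bases after an annotated start), and capitals mark a match on either strand. The Crx window is chr7:15879906-15880205, the Otx2 window is chr14:48665060-48665359 and the Prdm1 window is chr10:44458699-44458998.
Crx: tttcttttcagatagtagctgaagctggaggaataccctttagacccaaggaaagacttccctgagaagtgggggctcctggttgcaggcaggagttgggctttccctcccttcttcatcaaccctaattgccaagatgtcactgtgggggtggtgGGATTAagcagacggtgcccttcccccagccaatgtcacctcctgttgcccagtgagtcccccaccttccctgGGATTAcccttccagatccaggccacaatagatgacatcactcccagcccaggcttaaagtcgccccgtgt
Otx2: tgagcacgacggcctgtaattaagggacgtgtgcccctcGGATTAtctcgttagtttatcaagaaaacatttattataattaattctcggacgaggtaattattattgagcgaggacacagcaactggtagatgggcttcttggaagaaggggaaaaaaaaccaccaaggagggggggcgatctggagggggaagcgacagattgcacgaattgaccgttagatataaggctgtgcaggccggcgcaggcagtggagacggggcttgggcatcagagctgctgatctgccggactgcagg
Prdm1: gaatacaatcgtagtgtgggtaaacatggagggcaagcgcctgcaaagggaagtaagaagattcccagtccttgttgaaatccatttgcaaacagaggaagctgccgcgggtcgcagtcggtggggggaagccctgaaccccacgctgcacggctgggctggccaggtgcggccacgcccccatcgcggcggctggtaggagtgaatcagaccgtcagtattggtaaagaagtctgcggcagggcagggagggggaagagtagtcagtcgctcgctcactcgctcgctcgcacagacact

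The Crx window held 2 copies of the motif, 94 and 21 bases upstream of the start. Otx2 had 4 annotated windows, and the printed one held 1 copy 211 bases upstream, while the other 3 held 0, including the window nearest the start of the measured transcript. The Prdm1 window held 0 copies. Among all 32851 promoter windows of this length 7.06% held at least 1 copy and 0.359% at least 2. Of 1106 genes of the P21 table with a window, 10.8% had at least 1 copy and 0.814% at least 2. At least 1 copy was held by 11 of 26 photoreceptor genes shared by rods and cones, 4 of 11 rod genes and 2 of 9 cone genes. Among photoreceptor transcription factors it was 1 of 9 (11.1%), near the table's share. A match describes the letters in the window and is not evidence of binding.

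Crx transcript stayed abundant in every mutant, the null included. It stood at 310.9 and 275.1 FPKM in CrxRip/+, at 174.1 and 218.8 in CrxRip/Rip, at 167.9 and 171.4 in Crx-/-, and at 341.9 and 300.0 in Nrl-/-, against 350.7 and 343.9 in wild type. All 8 mutant samples lay below both wild-type samples, and the 4 samples of CrxRip/Rip and Crx-/- lay below all others. Depending on the mutant, 579 to 720 of the 1497 genes lay below wild type without overlap. The FPKM of a whole transcript does not show which part of it is made, so the level in Crx-/- and in the CrxRip mutants is no check of the allele. By mean level Crx ranked 7th of the 1497 genes in CrxRip/+, 9th in CrxRip/Rip, 19th in Crx-/- and 21st in both Nrl-/- and wild type. These ranks are among the selected genes, whose summed FPKM was lower in every mutant. A higher rank of Crx in a mutant is therefore not a higher level.

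Otx2 transcript was higher in every mutant. It was at 153.3 and 152.7 FPKM in CrxRip/+, at 263.5 and 289.0 in CrxRip/Rip, at 211.6 and 186.8 in Crx-/-, and at 126.3 and 107.2 in Nrl-/-, against 81.0 and 80.1 in wild type. No genotype's samples overlapped those of another, which is common in this table. Depending on the pair of genotypes, 67.3% to 93.4% of the 1497 genes did not overlap. Its rank by mean level was 5th of 1497 in CrxRip/Rip, 16th in Crx-/-, 24th in CrxRip/+ and 57th in Nrl-/-, against 94th in wild type.

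Prdm1 transcript was far less abundant than the other two and was also higher in every mutant. It was at 8.6 and 9.6 FPKM in CrxRip/+, at 12.6 and 11.7 in CrxRip/Rip, at 14.4 in both samples of Crx-/-, and at 16.5 and 14.2 in Nrl-/-, against 3.9 and 3.8 in wild type. The lowest mutant sample was thus more than both wild-type samples added together, and the samples of Crx-/- and Nrl-/- overlapped. Depending on the mutant, 619 to 761 of the 1497 genes lay above wild type without overlap. Between the lowest and the highest genotype mean, Prdm1 varied 3.99-fold, Otx2 3.43-fold and Crx 2.05-fold.

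**Figure D1:**
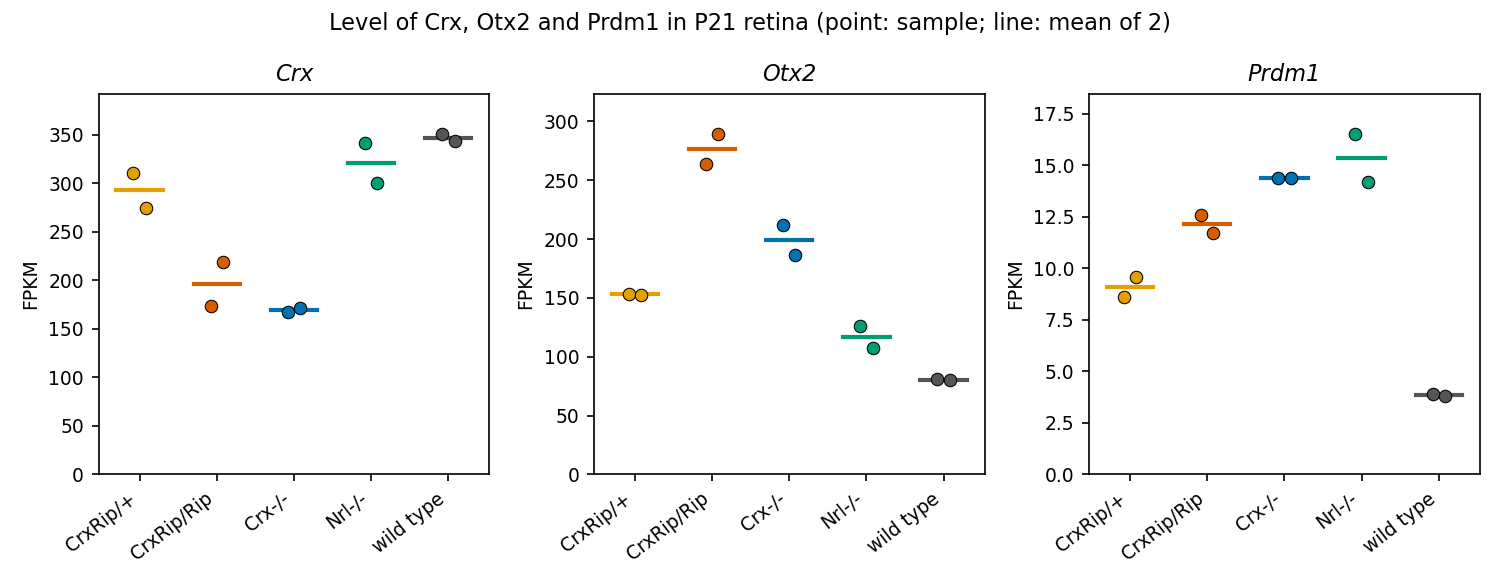
FPKM of Crx, Otx2 and Prdm1 in each P21 sample (vertical axis, starting at 0), with genotypes side by side, points for samples and lines for the mean of 2. Crx runs from 167.9 to 350.7, Otx2 from 80.1 to 289.0 and Prdm1 from 3.8 to 16.5 FPKM, and wild type has the highest mean of Crx and the lowest of Otx2 and Prdm1.

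The comparison of each mutant with wild type asks how the factors stand when Crx is altered or lost, or when rods are not specified. A change is the difference of log2(FPKM + 1), and calls were made at a limma p below 0.05 after Benjamini-Hochberg adjustment across the 1497 genes. Otx2 and Prdm1 were called higher in all 4 mutants, and Crx was called lower in CrxRip/Rip and Crx-/-. These shares have to be read against a selected table, in which most genes were called in each comparison. All 4 comparisons use the same wild-type samples, so they are not independent of each other.

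In CrxRip/+, 2 of the 3 genes were called, both higher, where 74.5% of the table was called (39.5% higher, 35% lower). Otx2 averaged 153 ± 0.424 FPKM in CrxRip/+ and 80.6 ± 0.636 in wild type (SD, n = 2 each), a change of 0.92 (SE 0.106, limma adjusted p = 9.32e-05). Prdm1 averaged 9.1 ± 0.707 FPKM in CrxRip/+ and 3.85 ± 0.0707 in wild type and rose by 1.06 (SE 0.0999, limma adjusted p = 2.97e-05). Crx averaged 293 ± 25.3 FPKM in CrxRip/+ and 347 ± 4.81 in wild type, a change of -0.25 with a 95% interval of -0.54 to 0.04 that was not called (limma adjusted p = 0.104). The missing call depends on how the data are processed. The authors' deposited table gives Crx a log2 fold change of -0.47 with an adjusted p of 0.0013, and median-of-ratios rescaling gave -0.42 and a call (limma adjusted p = 0.0111). With the change kept at -0.25, it was also called without CrxRip/Rip replicate 1 (limma adjusted p = 0.0456) or replicate 2 (0.0452), which enter the shared estimate of the spread. Over the whole table, 87% of genes had CrxRip/+ samples that did not overlap wild type, as all 3 factors did.

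In CrxRip/Rip all 3 genes were called, where 80.6% of the table was (36.3% higher, 44.3% lower). Otx2 averaged 276 ± 18.0 FPKM in CrxRip/Rip and 80.6 ± 0.636 in wild type, and rose by 1.76 (limma adjusted p = 1.48e-06), its largest change. Prdm1 averaged 12.2 ± 0.636 FPKM in CrxRip/Rip and 3.85 ± 0.0707 in wild type and rose by 1.44 (adjusted p = 3.12e-06). Crx averaged 196 ± 31.6 FPKM in CrxRip/Rip and 347 ± 4.81 in wild type and fell by 0.83 (adjusted p = 3.53e-04). A larger rise than that of Otx2 was seen in 3.94% of the table, and a larger fall than that of Crx in 29.4%. No overlap with wild type was seen for 89.4% of the table.

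In Crx-/- all 3 genes were called again, with 81.3% of the table called (39.8% higher, 41.5% lower). Otx2 averaged 199 ± 17.5 FPKM in Crx-/- and 80.6 ± 0.636 in wild type and rose by 1.29 (limma adjusted p = 9.67e-06). Prdm1 averaged 14.4 ± 0 FPKM in Crx-/- and 3.85 ± 0.0707 in wild type and rose by 1.67 (adjusted p = 1.69e-06). Crx averaged 169.7 ± 2.47 FPKM in Crx-/- and 347 ± 4.81 in wild type, 48.8% of the wild-type mean, and fell by 1.03 (adjusted p = 9.84e-05). No overlap with wild type was seen for 93.4% of the table.

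In Nrl-/- the 2 called genes were Otx2 and Prdm1, both higher, with 72.2% of the table called (40.4% higher, 31.8% lower). Prdm1 averaged 15.4 ± 1.63 FPKM in Nrl-/- and 3.85 ± 0.0707 in wild type, and its rise of 1.75 (limma adjusted p = 1.66e-06) was exceeded by 6.55% of the table. Otx2 averaged 117 ± 13.5 FPKM in Nrl-/- and 80.6 ± 0.636 in wild type and rose by 0.53 (adjusted p = 0.00224), or by 0.30 with median-of-ratios rescaling (adjusted p = 0.0197). Crx averaged 321 ± 29.6 FPKM in Nrl-/- and 347 ± 4.81 in wild type, a change of -0.12 with a 95% interval of -0.41 to 0.17 that was not called (adjusted p = 0.426), although median-of-ratios rescaling gave -0.35 and a call (adjusted p = 0.028). No overlap with wild type was seen for 89.5% of the table.

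The pattern of Otx2 and Prdm1, called higher in all 4 mutants, was shared by 315 of 1497 genes (21%). The pattern of Crx, called lower in CrxRip/Rip and Crx-/- and not called in the other mutants, was that of 54 genes (3.61%).

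**Figure D2:**
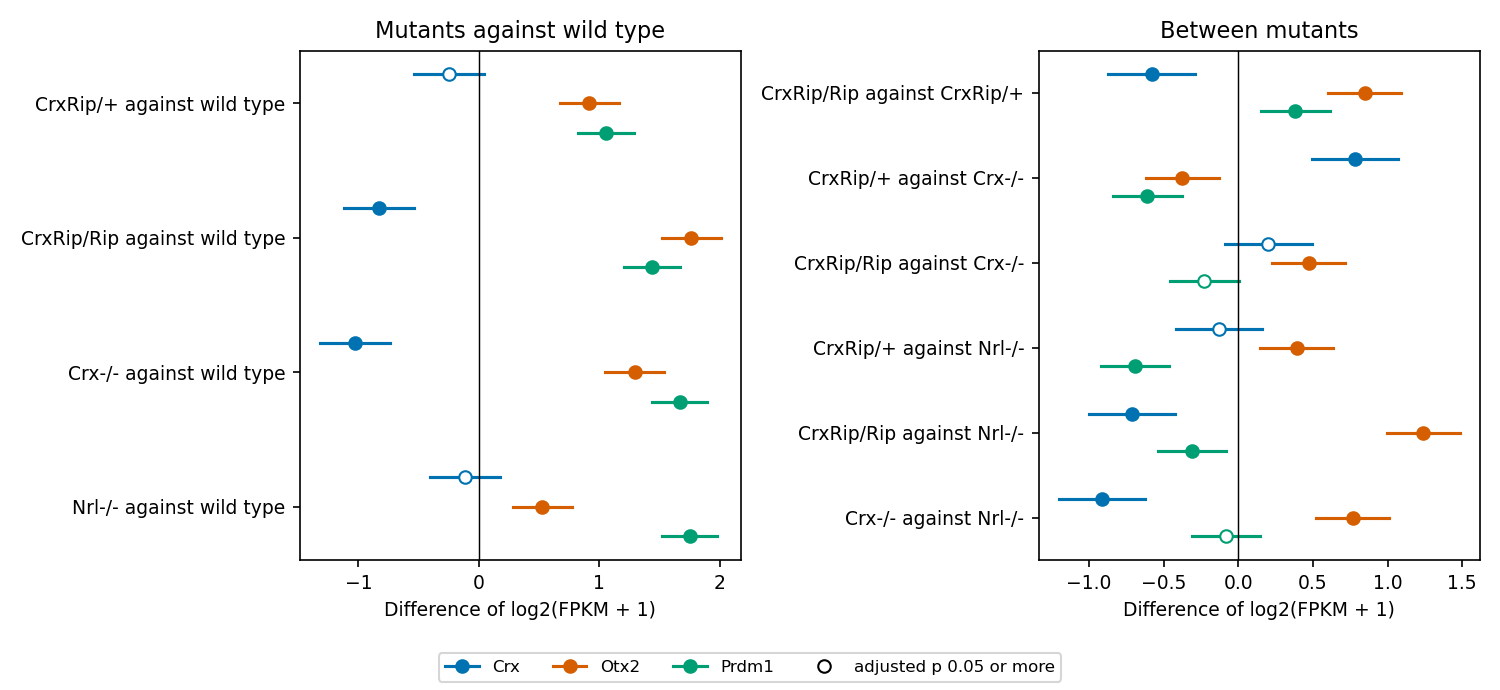
Differences of log2(FPKM + 1) of Crx, Otx2 and Prdm1 (horizontal axis) in the 4 comparisons with wild type and the 6 between mutants, with lines for 95% intervals and open points for an adjusted p of 0.05 or more. Against wild type Otx2 and Prdm1 lie right of 0 in every mutant, from 0.53 to 1.76, and Crx lies left of 0, with open points in CrxRip/+ and Nrl-/-.

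Comparing the mutants with each other asks whether a second CrxRip copy, the loss of Crx and the loss of Nrl leave the factors at different levels. CrxRip/Rip differed from CrxRip/+ in all 3 genes, where 47% of the table was called. Otx2 was higher by 0.85 in CrxRip/Rip (limma adjusted p = 4.92e-04), Crx changed by -0.58 (adjusted p = 0.00644) and Prdm1 was higher by 0.38 (adjusted p = 0.0155). With median-of-ratios rescaling the Crx change was -0.29 and not called (adjusted p = 0.0879), and the Prdm1 change was 0.65. The Prdm1 call was lost without CrxRip/+ replicate 1 (0.31) or CrxRip/Rip replicate 1 (0.33), and the authors' deposited table gives adjusted p of 0.134 for Prdm1 and 0.0598 for Crx here. The samples of CrxRip/Rip and CrxRip/+ overlapped for none of the 3 genes, as for 67.3% of the table.

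CrxRip/Rip and Crx-/-, which both lack a normal Crx allele, differed in Otx2, with 53.4% of the table called between them. Otx2 was higher in CrxRip/Rip than in Crx-/- by 0.47 (limma adjusted p = 0.00628). Crx differed by 0.20 (95% interval -0.09 to 0.49, adjusted p = 0.209) and Prdm1 by -0.23 (95% interval -0.46 to 0.0014, adjusted p = 0.0856), and neither was called. The Crx difference was called without CrxRip/Rip replicate 1 (0.37), and also when samples were rescaled by the median of ratios (0.37).

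CrxRip/+ and Crx-/- differed in all 3 genes, with 52.6% of the table called. Crx was higher in CrxRip/+ by 0.78 (limma adjusted p = 0.00114). Prdm1 changed by -0.61 (adjusted p = 0.00126) and Otx2 by -0.38 (adjusted p = 0.0173) in CrxRip/+ against Crx-/-. The Otx2 call was lost without either CrxRip/+ sample and without Crx-/- replicate 1 (-0.29).

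Against Nrl-/-, the mutant in which rods are replaced by cone-like cells, the factors separated in other ways. Otx2 was higher in CrxRip/Rip by 1.24 (limma adjusted p = 2.28e-05), in Crx-/- by 0.77 (adjusted p = 3.21e-04) and in CrxRip/+ by 0.39 (adjusted p = 0.0166), the last lost without either CrxRip/+ sample and without Nrl-/- replicate 2 (0.27). Crx changed by -0.71 in CrxRip/Rip (adjusted p = 0.00126, or -0.37 with median-of-ratios rescaling) and by -0.91 in Crx-/- (adjusted p = 3.15e-04), and by -0.13 in CrxRip/+, which was not called (adjusted p = 0.421). Prdm1 changed by -0.69 in CrxRip/+ (adjusted p = 7.74e-04), by -0.31 in CrxRip/Rip (adjusted p = 0.0237) and by -0.08 in Crx-/-, the last not called (adjusted p = 0.497). The Prdm1 call in CrxRip/Rip depended on the processing, with a change of 0.010 once samples were rescaled by the median of ratios. The change was -0.26 without CrxRip/Rip replicate 2 and -0.21 without Nrl-/- replicate 1. In the authors' deposited table Prdm1 is called here, at -0.44 (their adjusted p = 0.00902). The table's share of calls against Nrl-/- was 48.8% for CrxRip/+, 66.8% for CrxRip/Rip and 65.1% for Crx-/-.

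Ordered by mean FPKM, the 3 factors ranked the genotypes differently. Otx2 was highest in CrxRip/Rip, followed by Crx-/-, CrxRip/+, Nrl-/- and wild type, and each neighbour in that order was called against the next. In the authors' deposited table, CrxRip/+ is called apart neither from Crx-/- (their adjusted p = 0.0557) nor from Nrl-/- (0.156). Prdm1 was highest in Nrl-/-, followed by Crx-/-, CrxRip/Rip, CrxRip/+ and wild type, and of these neighbours Nrl-/- and Crx-/- overlapped, while Crx-/- and CrxRip/Rip did not overlap but were not called apart. Crx was highest in wild type, followed by Nrl-/-, CrxRip/+, CrxRip/Rip and Crx-/-, and of these neighbours only CrxRip/Rip and CrxRip/+ were called apart. That call is absent from the deposited table (the authors' adjusted p = 0.0598).

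A ratio within a sample does not depend on how a library is scaled. The ratio of Otx2 to Crx was 0.493 and 0.555 in CrxRip/+, 1.51 and 1.32 in CrxRip/Rip, 1.26 and 1.09 in Crx-/-, and 0.369 and 0.357 in Nrl-/-, against 0.231 and 0.233 in wild type. Otx2 exceeded Crx in all 4 samples of CrxRip/Rip and Crx-/- and in none of the others. Which part of the Crx transcript is made in Crx-/- and in the CrxRip mutants is not known. Their Crx values, and every ratio that uses them, may therefore not be like for like with wild type. The mean ratio was 6.11 times that of wild type in CrxRip/Rip, 5.07 times in Crx-/-, 2.26 times in CrxRip/+ and 1.57 times in Nrl-/-. No pair of genotypes overlapped, but 2 samples against 2 cannot give an exact two-sided permutation p below 0.33.

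Prdm1 as a share of Crx was 3.13% in CrxRip/+, 6.29% in CrxRip/Rip and 8.49% in Crx-/-, with 4.78% in Nrl-/-, against 1.11% in wild type. As a share of Otx2, Prdm1 stood apart in Nrl-/-, at 13.2 ± 0.129%, against 4.78 ± 0.05% in wild type (SD, n = 2 each). In the Crx mutants the share of Prdm1 in Otx2 was 5.95% in CrxRip/+, 4.42% in CrxRip/Rip and 7.26% in Crx-/-, and CrxRip/Rip overlapped wild type.

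The sum of Crx and Otx2 was examined after their values had been seen. It carries the same limit, that the part of the Crx transcript made in the Crx mutants is not known. The summed level was 464.2 and 427.8 FPKM in CrxRip/+, 437.6 and 507.8 in CrxRip/Rip, 379.5 and 358.2 in Crx-/-, and 468.2 and 407.2 in Nrl-/-, against 431.7 and 424.0 in wild type. The group means were 104%, 110%, 86.2% and 102% of the wild-type mean in CrxRip/+, CrxRip/Rip, Crx-/- and Nrl-/-. Crx-/- lay below every other sample, and with 2 samples against 2 its exact permutation p against wild type was 0.33, the smallest that design allows. Otx2 made up 34.4% of the sum in CrxRip/+, 58.6% in CrxRip/Rip and 54% in Crx-/-, with 26.7% in Nrl-/-, against 18.8% in wild type.

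**Figure D3:**
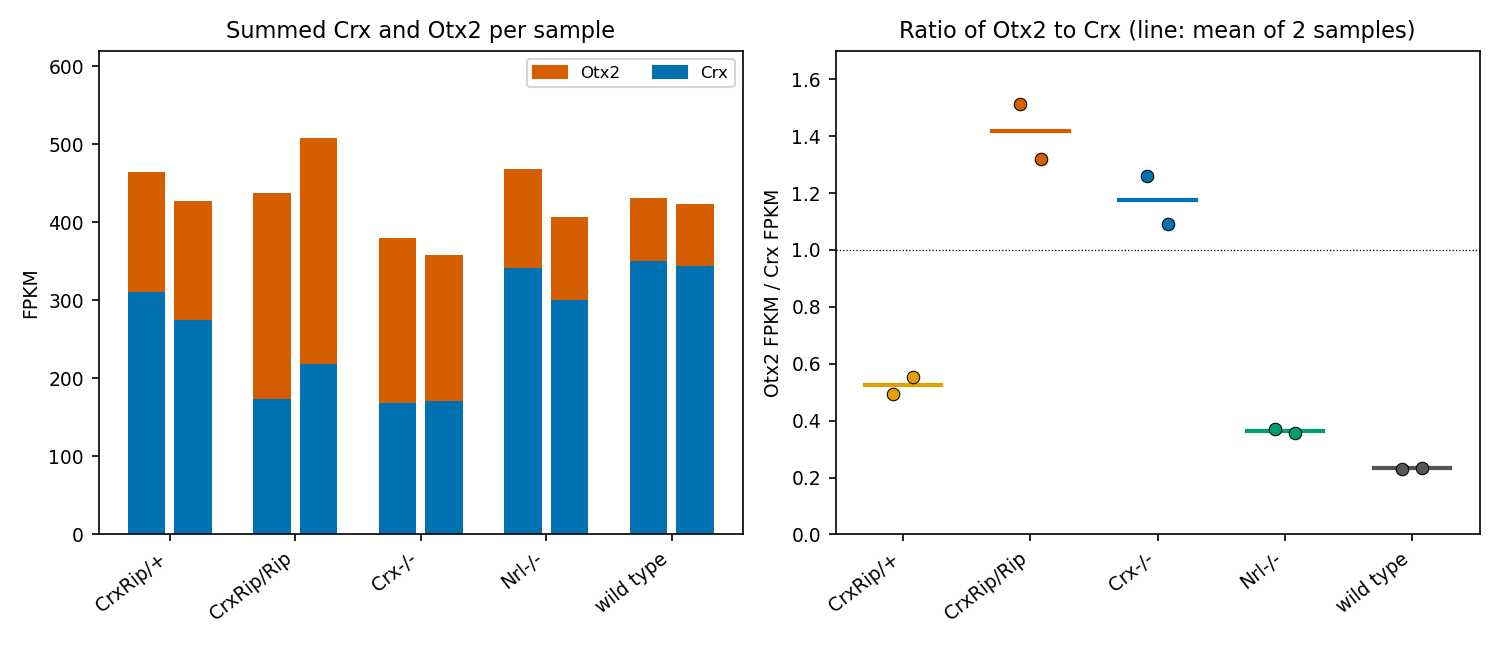
Left, FPKM of Crx (lower part of each bar) and Otx2 (upper part) in each sample, 2 bars per genotype on an axis from 0. Right, the ratio of Otx2 to Crx in each sample with the mean of 2 as a line and a dotted line at 1, which the samples of CrxRip/Rip and Crx-/- exceed (1.09 to 1.51).

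The genes most like each factor were sought by Pearson r of log2(FPKM + 1) over the 10 P21 samples, among 885 genes with a mean of at least 5 FPKM. These r are descriptions, since the samples are 5 pairs of one genotype each and all genes share the libraries. Crx was followed most closely by Gpsm1, a G protein modulator (r = 0.991), and by Slc17a7, the vesicular glutamate transporter VGLUT1 (r = 0.985). Slc17a7 was at 343 FPKM in CrxRip/+, 209 in CrxRip/Rip and 169 in Crx-/-, with 356 in Nrl-/-, against 365 in wild type, levels close to those of Crx in each genotype. It was also nearest by the mean squared distance between centred values. Sarm1, an axon degeneration enzyme (0.982), Tob2 (0.971) and Rcvrn, the photoreceptor calcium sensor recoverin (0.970), came next. Rcvrn ranked 870th of 885 by distance, since it fell much further, to 6.9 FPKM in CrxRip/Rip and 7.25 in Crx-/-, against 526 in wild type. The most opposite genes were Chrna3, a nicotinic receptor subunit (-0.965), App (-0.960) and Cpne7 (-0.930).

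Otx2 was most like Chgb, which encodes a secretory granule protein (r = 0.985), Enc1 (0.982), the transcription factor Atf5 (0.974), the neurogenic bHLH factor Neurod4 (0.972) and Nrep (0.969). Neurod4 was at 76.1 FPKM in CrxRip/+, 153.9 in CrxRip/Rip and 107 in Crx-/-, with 72.3 in Nrl-/-, against 51.3 in wild type, and was called higher in each mutant. The most opposite genes were Glmn (-0.992), Gucy2e, a photoreceptor guanylate cyclase (-0.982), and Tmem136 (-0.978). Gucy2e was at 29.5 FPKM in CrxRip/+, 7.8 in CrxRip/Rip and 18.7 in Crx-/-, with 39.95 in Nrl-/-, against 71.3 in wild type.

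Prdm1 was most like Prtg (r = 0.978), Klf3, a Krüppel-like factor (0.967), Bckdhb (0.958), Nin, a centrosome protein (0.956), and Hist3h2ba, a histone gene (0.956). Prtg was at 5 FPKM in CrxRip/+, 5.1 in CrxRip/Rip and 7.7 in Crx-/-, with 9.8 in Nrl-/-, against 0.95 in wild type. Among the most opposite genes were Pip4k2c (-0.974) and Cyb5r1 (-0.964). By distance the nearest gene to Prdm1 was Olfm1, which is not among the 5 of highest r.

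**Figure D4:**
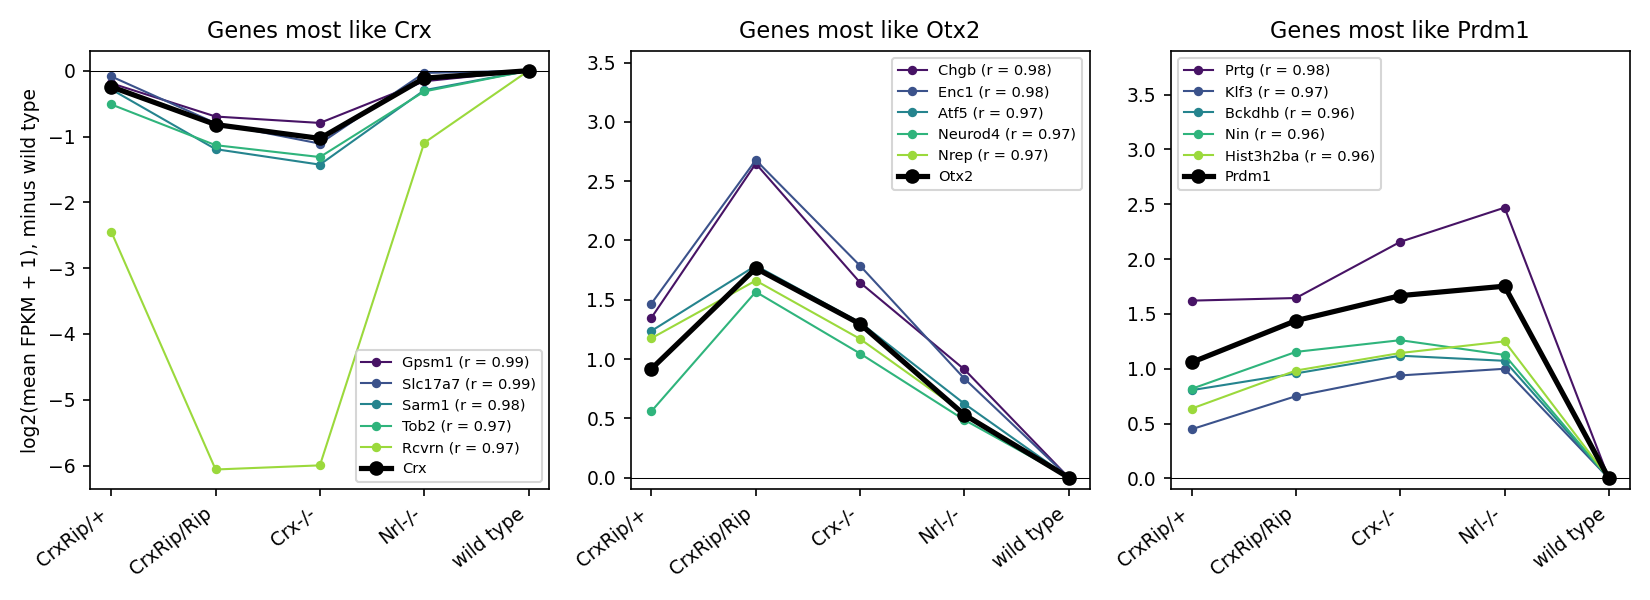
log2(mean FPKM + 1) of each genotype minus that of wild type, for Crx, Otx2 and Prdm1 (black) and the 5 genes with the highest r to each (coloured). The order of the mutants is close to that of the factor in each panel but not the same for every gene (Nin and Bckdhb are higher in Crx-/- than in Nrl-/-, unlike Prdm1), and Rcvrn, at r = 0.970 to Crx, falls much further than Crx itself.

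The other transcription factors of photoreceptors were called lower more often than higher, against wild type, in every mutant. Of 11 listed factors in the table, 2 were called higher and 7 lower in CrxRip/+, 3 and 7 in CrxRip/Rip, 3 and 6 in Crx-/-, and 4 and 6 in Nrl-/- (2 and 7 there with median-of-ratios rescaling). The lower calls in Nrl-/- include Nrl itself, the targeted gene, so the split in that mutant is partly set by the design. The shares of the whole table called higher were 39.5%, 36.3%, 39.8% and 40.4% in CrxRip/+, CrxRip/Rip, Crx-/- and Nrl-/-, and those called lower were 35%, 44.3%, 41.5% and 31.8%. Nrl was at 0.65 FPKM in CrxRip/+, 0.15 in CrxRip/Rip and 84.6 in Crx-/-, against 447 in wild type. Nr2e3, the rod nuclear receptor that represses cone genes, was at 1.35 FPKM in CrxRip/+, listed at 0 in CrxRip/Rip and at 114 in Crx-/-, against 211 in wild type. Between CrxRip/Rip and Crx-/-, whose Crx levels were not called apart, Nrl changed by -6.22 and Nr2e3 by -6.84 (limma adjusted p = 2.60e-08 for each). With CrxRip/Rip at 0.15 and 0 FPKM, these sizes depend on the 1 FPKM added before the log. Rxrg, a cone nuclear receptor, was called higher in all 4 mutants, at 16.9, 7.3, 32.2 and 18.7 FPKM in CrxRip/+, CrxRip/Rip, Crx-/- and Nrl-/-, against 2.55 in wild type.

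Among 7 other homeobox genes in the table, 2 were called higher in CrxRip/+, 4 in CrxRip/Rip and 3 in Crx-/-, with 6 in Nrl-/- (4 with median-of-ratios rescaling), and 0, 1, 1 and 0 lower (1 in CrxRip/+ with that rescaling). The table's share called higher was 36.3% to 40.4%, which the counts of 2 to 4 of 7 lie near. Six6, an eye field factor, was called higher in all 4 mutants, at 40.1, 36.2, 30.4 and 34.1 FPKM in CrxRip/+, CrxRip/Rip, Crx-/- and Nrl-/-, against 10.5 in wild type. Obox6, a neighbour of the Crx locus, was at 0.45 to 0.65 FPKM in the means of the other mutants and at 22 in Crx-/-, against 0.3 in wild type. Of the other PRDM genes, Prdm9 was called lower in all 4 mutants, at 1.95 to 3.65 FPKM in their means against 7.95 in wild type. Prdm8 was called higher in Nrl-/- (27.4 FPKM) and lower in CrxRip/Rip (9.95 FPKM), against 16.4 in wild type.

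Rod genes and most genes shared by rods and cones fell in all 4 mutants, while cone genes were called in both directions in the Crx mutants and higher in Nrl-/-. Rod genes had a median change of -4.47 in CrxRip/+, -5.62 in CrxRip/Rip and -3.64 in Crx-/-, with -4.82 in Nrl-/-, beside table medians of 0.13, -0.14, -0.04 and 0.17. Genes shared by rods and cones were called lower in 24, 32, 29 and 21 of 33 in CrxRip/+, CrxRip/Rip, Crx-/- and Nrl-/-. The table's shares called lower were 35%, 44.3%, 41.5% and 31.8% in the same order. Of 13 cone genes, 6 were called higher and 4 lower in CrxRip/+, 5 and 7 in CrxRip/Rip, 7 and 4 in Crx-/-, and 13 and 0 in Nrl-/-. The table's shares called higher were 39.5%, 36.3%, 39.8% and 40.4%, so the cone counts in the Crx mutants were not far from the table's. Summed cone FPKM was 6880.7 and 7109.2 in Nrl-/-, against 752.8 and 811.2 in wild type, while Otx2 was closest to wild type in that mutant and Crx was not called.

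Otx2 is also a bipolar and RPE gene, so the markers of these cells were read beside it. Of 7 RPE and pigment genes in the table (of 22 listed), 4 were called higher in CrxRip/+, 6 in CrxRip/Rip and 7 in Crx-/-, with 6 in Nrl-/-, and 0 lower, beside table shares called higher of 39.5%, 36.3%, 39.8% and 40.4%. Their summed FPKM was 46.2 to 88.2 in the mutant samples, against 10.8 and 23.1 in wild type. It was 48.2 and 66.0 in CrxRip/Rip and 52.8 and 88.2 in Crx-/-, which overlap. Between these 2 mutants 0 of the 7 genes were called, where 53.4% of the table was. Otx2 was called higher in CrxRip/Rip than in Crx-/-. Rpe65, the RPE retinoid isomerase, was at 3.5 FPKM in CrxRip/+, 4.2 in CrxRip/Rip and 4.35 in Crx-/-, with 3.55 in Nrl-/-, against 0.8 in wild type. The part of this tissue in the Otx2 difference was not tested.

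Of 7 bipolar genes in the table (of 29 listed), 1 was called higher and 2 lower in CrxRip/+ (0 and 5 with median-of-ratios rescaling), 1 and 6 in CrxRip/Rip, 2 and 3 in Crx-/-, and 3 and 1 in Nrl-/-. The table's shares called higher were 39.5%, 36.3%, 39.8% and 40.4% in the same order, and those called lower 35%, 44.3%, 41.5% and 31.8%. The counts in Crx-/- lie near these shares. Their summed FPKM was 129.6 and 138.6 in CrxRip/+, 75.3 and 91.2 in CrxRip/Rip, 148.2 and 151.4 in Crx-/-, and 275.9 and 286.7 in Nrl-/-, against 132.8 and 156.9 in wild type. The sum was lowest in CrxRip/Rip, where Otx2 was highest. Most of the higher sum in Nrl-/- came from Cabp5, a calcium-binding protein of bipolar cells, at 157 FPKM in Nrl-/- against 39.05 in wild type, and the median change of the 7 genes there was 0.046, beside a table median of 0.17. Lhx4, Sebox and Prdm8 stand both among these 7 and in the homeobox or PRDM lists. The bipolar genes Grm6 and Trpm1 were not analysed here, and the part of bipolar cells in either factor's level was not tested.

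Prdm1 is also known from plasma cells and other immune cells. The 1 plasma cell gene in the table, Igj, was at 8.5 and 6.9 FPKM in CrxRip/+, 2 and 2.5 in CrxRip/Rip, 10.5 and 9.2 in Crx-/-, and 14.8 and 18.2 in Nrl-/-, against 6.7 and 7.6 in wild type. It was called higher in Crx-/- (limma adjusted p = 0.0292) and Nrl-/- and lower in CrxRip/Rip, and not called in CrxRip/+ (adjusted p = 0.591). The 3 microglia and immune genes in the table summed to 12.3 and 22.5 FPKM in CrxRip/+, 6.9 and 8.6 in CrxRip/Rip, 15.3 and 18.7 in Crx-/-, and 10.5 and 14.7 in Nrl-/-, against 7.7 and 7.8 in wild type. All 3 were called higher in CrxRip/+ and in Crx-/-, 1 in Nrl-/- (0 with median-of-ratios rescaling) and 0 in CrxRip/Rip. With rescaling to the authors' fold changes, 1 was called higher in CrxRip/+, in Crx-/- and in Nrl-/-. The table's share called higher was 36.3% to 40.4%. In CrxRip/Rip, Ctss, the one with the highest mean, had a limma adjusted p of 0.525. Gliosis and stress genes were called higher in 7 of 10 in CrxRip/+, 2 in CrxRip/Rip and 8 in Crx-/-, with 4 in Nrl-/-, and 0 were called lower, beside table shares called higher of 36.3% to 40.4%. The count was 4 in CrxRip/Rip with median-of-ratios rescaling, and 7 were called in Nrl-/- with a smaller pseudocount. The part of these cells in the Prdm1 level was not tested.

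**Figure D5:**
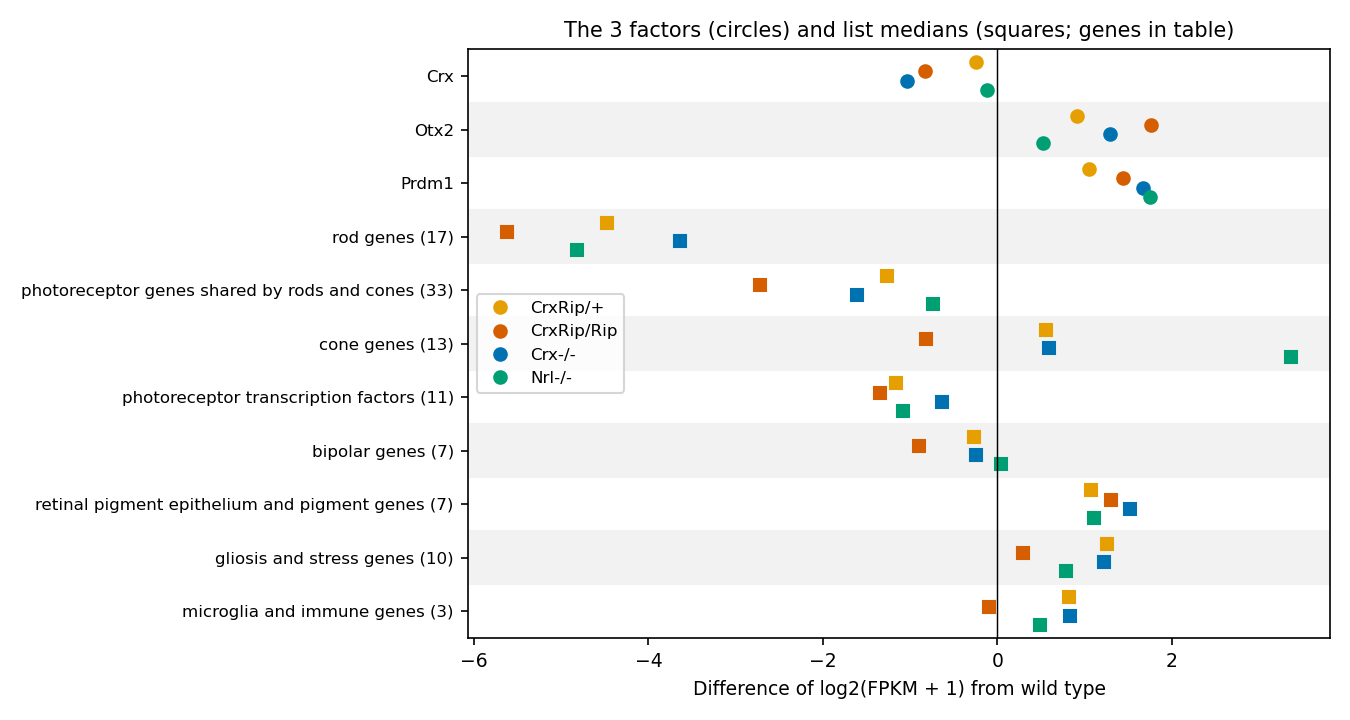
Differences of log2(FPKM + 1) from wild type (horizontal axis) for Crx, Otx2 and Prdm1 (circles) and the medians of gene lists (squares, with the number of listed genes in the table), 1 colour per mutant. Rod genes lie furthest left (medians -5.62 to -3.64), while Otx2, Prdm1 and the RPE and pigment genes lie right of 0 in all 4 mutants.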

How the data were processed

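Whole-retina RNA was sequenced from directional TruSeq libraries of 1 microgram of total RNA, per the labels' protocols. The deposited P21 table gives FPKM per sample, rounded to 1 decimal, per the file headers. It also holds the authors' adjusted p-values and log2 fold changes for pairs of genotypes. The submitters' processing notes name DESeq, and the aligner, build and annotation are not given in sources used here. All 1497 genes met, in some pair of genotypes, an adjusted p below 0.05, a log2 change of 1 or more and a mean of 2 FPKM or more.

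limma 3.58.1 (R 4.3.3) was fitted to log2(FPKM + 1) of the 10 P21 samples with 1 term per genotype and a variance trend, two-sided, with 5 residual degrees of freedom plus 3.06 from moderation. P-values were adjusted by Benjamini-Hochberg over 1497 genes in each of 10 comparisons, and the fit was checked on simulated data. FPKM hold no counts, so no counting interval was computed. Genes named besides the 3 factors were the 5 of highest and 3 of lowest r to each and, per list and mutant, up to 3 called genes of largest change and the highest uncalled one, except items that are not reported here. Rxrg in mutants other than Crx-/- and single values given beside a list were taken after their values were seen. The factors and lists were chosen with earlier results of these data known. Alternatives were other pseudocounts, a filter, rescaling, subsets of samples, the replicate block and the authors' own comparisons. Median-of-ratios rescaling took its factors from 1463 genes of the selected table. It assumes that most of them do not change, although most genes were called against wild type.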

Additional observations from a re-analysis of the deposited data

How the results depend on the processing

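The rises of Otx2 and Prdm1 in the 4 mutants and the falls of Crx in CrxRip/Rip and Crx-/- against wild type kept their direction and call under every alternative run. The following did not. Crx in CrxRip/+ against wild type was called with median-of-ratios rescaling (-0.42), with rescaling to the authors' fold changes, an alternative chosen after seeing the data (-0.46), and in the authors' deposited table (-0.47), and it was -0.34 to -0.16 with a sample left out, with calls at -0.25 without either CrxRip/Rip sample. Crx in Nrl-/- against wild type was called after rescaling by the median of ratios (-0.35). In CrxRip/Rip against CrxRip/+, Crx was not called after rescaling by the median of ratios (-0.29), with only those genotypes fitted (-0.58) or in the authors' deposited table (-0.57). Prdm1 there was not called with only those genotypes fitted (0.38) or in the deposited table (0.42), and was 0.31 to 0.45 with a sample left out. With only those genotypes fitted, 279 genes were called instead of 703. Otx2 in CrxRip/+ against Crx-/- was not called in the deposited table (-0.38), and was -0.47 to -0.29 with a sample left out. In CrxRip/Rip against Crx-/-, Crx was called with median-of-ratios rescaling (0.37) and was 0.037 to 0.37 with a sample left out, and Otx2 was not called with only those genotypes fitted (0.47). Otx2 in CrxRip/+ against Nrl-/- was not called with only those genotypes fitted (0.39), rescaled to the authors' fold changes (0.28) or in the deposited table (0.29), and was 0.27 to 0.51 with a sample left out. Prdm1 in CrxRip/Rip against Nrl-/- turned to 0.010 (limma adjusted p = 0.932) after rescaling by the median of ratios. It was not called with only those genotypes fitted (-0.31), was -0.41 to -0.21 with a sample left out, and was called in the deposited table (-0.44). The cause of these changes was not tested. A fit with a sample left out leaves a group of 1, which is assumed to vary like the others. The deviations of same-numbered samples had correlations over genes of -0.30 (CrxRip/+ with CrxRip/Rip) to 0.24 (CrxRip/Rip with Nrl-/-). Whether same-numbered samples share a source is not known. With the replicate block no call of the 3 factors changed, for example Crx in CrxRip/+ against wild type at -0.25 (limma adjusted p = 0.121), and 687 genes instead of 703 were called between CrxRip/Rip and CrxRip/+. Rescaling by the median of ratios moved the share of higher among called genes from 23.5% to 53% between CrxRip/Rip and CrxRip/+, from 36.4% to 50.9% between CrxRip/Rip and Crx-/- and from 31.7% to 50.6% between CrxRip/Rip and Nrl-/-. This near-even split is largely built in, because the rescaling centres the changes of the same selected table. It therefore does not tell which scaling is right. The table's median change against wild type was -0.03, -0.28, -0.20 and 0.09 in CrxRip/+, CrxRip/Rip, Crx-/- and Nrl-/- when rescaled to the authors' fold changes. A comparison of the proteins of Crx and Otx2 was planned and not run. Depth is unknown, values under 1 FPKM are limited by rounding, and 2 samples per group limit every interval.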
